A study of Caenorhabditis elegans with 3 samples.

Results

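Cytosolic ribosomal proteins are the protein components of the machine that translates every mRNA, and this account follows their genes in late young adult hermaphrodites of the nematode Caenorhabditis elegans. The genes were chosen by name: probes with exactly 1 annotated gene symbol beginning with rpl- (large subunit), rps- (small subunit) or rla- (the old prefix for the P stalk), followed by a digit. This gave 64 probes for 63 genes, 38 of the large and 25 of the small subunit, out of 19264 genes or unnamed probes with a value on all 3 arrays; none of the 63 was lost for a missing value. No symbol of the rla- kind was present, and 15 of the 78 protein-coding genes that match the rule in the RefSeq table of assembly WBcel235 were not analysed here. All 63 symbols were the same in that table, and 62 genes rested on 1 probe.

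Each array had 2 channels, and RNA of adult hermaphrodites from preparation 1, 2 or 3 was set against a wild-type mixed reference RNA. The labels name no treatment. They give neither the make-up of the reference nor whether separate cultures were used. The p-values therefore rest only on spread between the 3 preparations, part of which may be technical. The limma method used here draws each gene's variance toward that of all features, so a p-value does not rest on that gene's own spread alone. In some fits below all features share 1 variance, and the p-value then does not measure a gene's own spread. Values are log2 ratios, and a positive one was taken as likely higher in the adult because the labels list adult RNA as channel 2; with the other direction every sign below would turn. The stage label was checked against markers. All 8 germline markers passed as higher (median of gene means 2.37 on the log2 scale), as did 4 of 7 oocyte and yolk markers. All 5 moulting markers and all 4 neuron markers passed as lower, and the 4 adult cuticle markers split, 3 higher and 1, rol-6, lower.

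The eukaryotic ribosome joins a small subunit, which reads the mRNA, to a large subunit, which forms peptide bonds and holds the tunnel through which the new chain leaves. Each ribosome carries a single copy of nearly every ribosomal protein, so the genes are usually expressed together. C. elegans keeps most of them as single genes, but a few proteins have 2 gene copies. The X chromosome of this species is largely silent in germ cells, which make up much of the adult hermaphrodite.

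In 2 of the 3 pairs of gene copies among the ribosomal protein genes, the copies differed. In the rpl-11 pair and in the rpl-23A pair, the autosomal copy stood near the top of the whole set and the X-linked copy near its bottom, more than 3-fold apart on average. The copies of rpl-37, both autosomal, did not separate. In RNA of whole animals, fewer cells of a type and less RNA per cell cannot be told apart. The protein of rpl-11 is known in other eukaryotes to enter the large subunit together with the protein of rpl-5 and the 5S rRNA. The protein of rpl-23A sits at the mouth of the exit tunnel, where factors that handle the new chain dock.

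The autosomal copy rpl-11.1, on chromosome V, had log2 ratios of 1.2, 0.87 and 1.51 on arrays 1, 2 and 3. Its X-linked partner rpl-11.2 had −0.88, −0.99 and −0.02. The copies did not overlap on any array, and rpl-11.1 had rank 2 of 63 on each of them. The within-array difference, rpl-11.1 minus rpl-11.2, was 2.08, 1.86 and 1.53, a mean of 1.82 ± 0.28 (SD, n = 3), or 3.53-fold. The limma fit over all genes after subtraction of rpl-11.2 gave it a 95% confidence interval of 1.09 to 2.55 and an adjusted p of 1.50e-05. That fit gave every feature 1 standard error, 0.37, so neither the interval nor the p measures the pair's own spread. In that fit 33.6% of all features lay higher than rpl-11.2 past the threshold of 0.05.

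For rpl-23A the numbering of the copies runs the other way. The X-linked copy rpl-23A.1 had log2 ratios of −0.71, −1.34 and −0.33. The copy rpl-23A.2, on chromosome I, had 1.19, 0.98 and 1.19. Again every value of the autosomal copy lay above every value of the X-linked one. The difference, rpl-23A.1 minus rpl-23A.2, was −1.89, −2.32 and −1.52, a mean of −1.91 ± 0.40 (SD, n = 3), or 3.76-fold lower, with a limma 95% interval of −2.36 to −1.47 and an adjusted p of 2.49e-05. In this fit 84.8% of all features lay lower than rpl-23A.2 past the threshold, which places that copy high among all genes.

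The third pair, rpl-37.1 on chromosome II and rpl-37.2 on chromosome III, showed no such gap. rpl-37.1 had 0.34, 0.01 and 0.37, and rpl-37.2 had 0.22, 0.05 and 0.54. Their difference, rpl-37.1 minus rpl-37.2, was −0.03 ± 0.15 (SD, n = 3), with a limma 95% interval of −0.53 to 0.46 and an adjusted p of 0.935, in a fit that called 10.8% of all features higher and 26.3% lower than rpl-37.2. The interval leaves room for a difference of up to about 0.5 either way but not for one of the size seen in the other pairs. The fit after subtraction of rpl-37.2 too gave every feature 1 standard error, 0.25, so its interval does not show the pair's own spread.

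**Figure D1:**
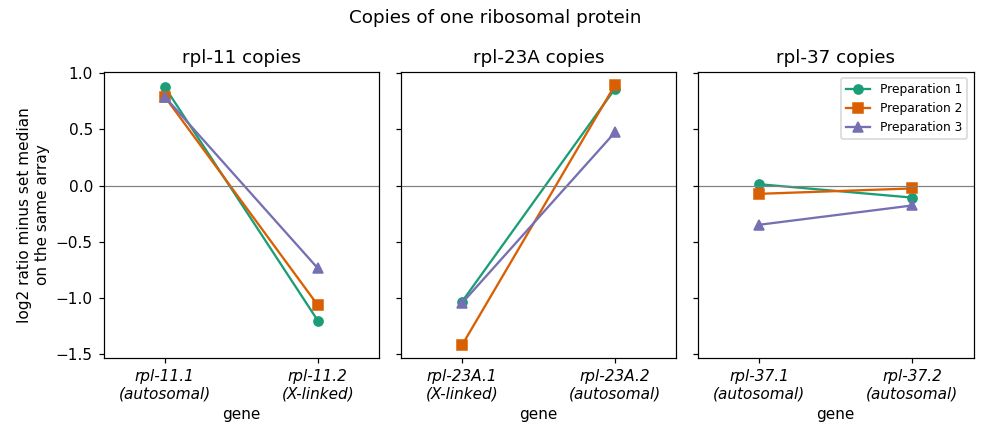
Log2 ratio of each copy minus the median of the 63 ribosomal protein genes on the same array (y axis) for 3 pairs of copies (x axis); a line joins the copies on 1 array, and colours and shapes give the preparation. The autosomal copies of rpl-11 and rpl-23A lie above 0 and the X-linked copies below it on all 3 arrays, while the rpl-37 copies lie together.

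The log2 ratios of the copies of each pair were also averaged. Such a mean is not the summed RNA of both copies, because ratios do not give the amount of each. The mean of rpl-11.1 and rpl-11.2 lay −0.09 ± 0.10 from the set median of the same array (SD, n = 3), that of the rpl-23A copies −0.21 ± 0.11 and that of the rpl-37 copies −0.12 ± 0.12. The means of the rpl-23A and rpl-37 copies lay below the set median on all 3 arrays. The exact sign-flip permutation test over 3 arrays cannot give a two-sided p below 0.25, the value it gave for both separated pairs; it gave 0.75 for rpl-37. Without the moderation of variances the rpl-11 difference did not pass (adjusted p = 0.275), whereas the rpl-23A difference did (adjusted p = 0.0366). Of 19263 features 0 passed in that rpl-11 fit, whereas 192 were higher and 10938 lower in that rpl-23A fit. The probes of copies may share signal, and how much was not tested.

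The X-linked copies were the only members on chromosome X, against 61 autosomal members. Over all 2250 named X-linked genes the array medians averaged −0.28 ± 0.06 (SD, n = 3), with 5.51% higher and 31.2% lower past the threshold. Over 12761 named autosomal genes they averaged 0.07 ± 0.04, with 22.6% higher and 18.7% lower. The 4 X-linked genes among the measured translation factors were spread widely. eef-1A.2, which encodes the elongation factor that brings aminoacyl-tRNA to the ribosome, had 1.02, 0.64 and 1.64 and an adjusted p of 0.00389. Its copy eef-1A.1 had no value of its own here, and whether the eef-1A.2 signal includes that copy was not tested. pab-2, which encodes a poly(A)-binding protein, had −1.53, −0.90 and −0.28 and an adjusted p of 0.0163. The cap-binding protein genes ife-4 and ife-2, at means of −0.54 ± 0.56 and 0.03 ± 0.31 (SD, n = 3 each), did not pass. The germline markers, which are higher in the adult, had array medians of 2.37, 2.34 and 2.35; their part in the difference between copies was not tested.

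As a set, the ribosomal protein genes lay modestly on the adult side. The median over the 63 genes was 0.32, 0.08 and 0.72 on arrays 1, 2 and 3, a mean of 0.37 ± 0.32 (SD, n = 3), against 0.06, 0.01 and 0.01 over all features. By limma with Benjamini-Hochberg adjustment over all features, 15 of the 63 (23.8%) were higher, where 19.6% of all features were called higher. Only 2 of the 63 (3.17%), the X-linked copies, were lower, where 18.8% of all features were. On every one of the 3 arrays 35 of the 63 (55.6%) lay above 0, against 33.7% of all features, and 4 (6.35%) lay below 0, against 30.1%. With all 3 arrays the share of higher genes is thus near the background, and that of lower genes is below it.

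**Figure D2:**
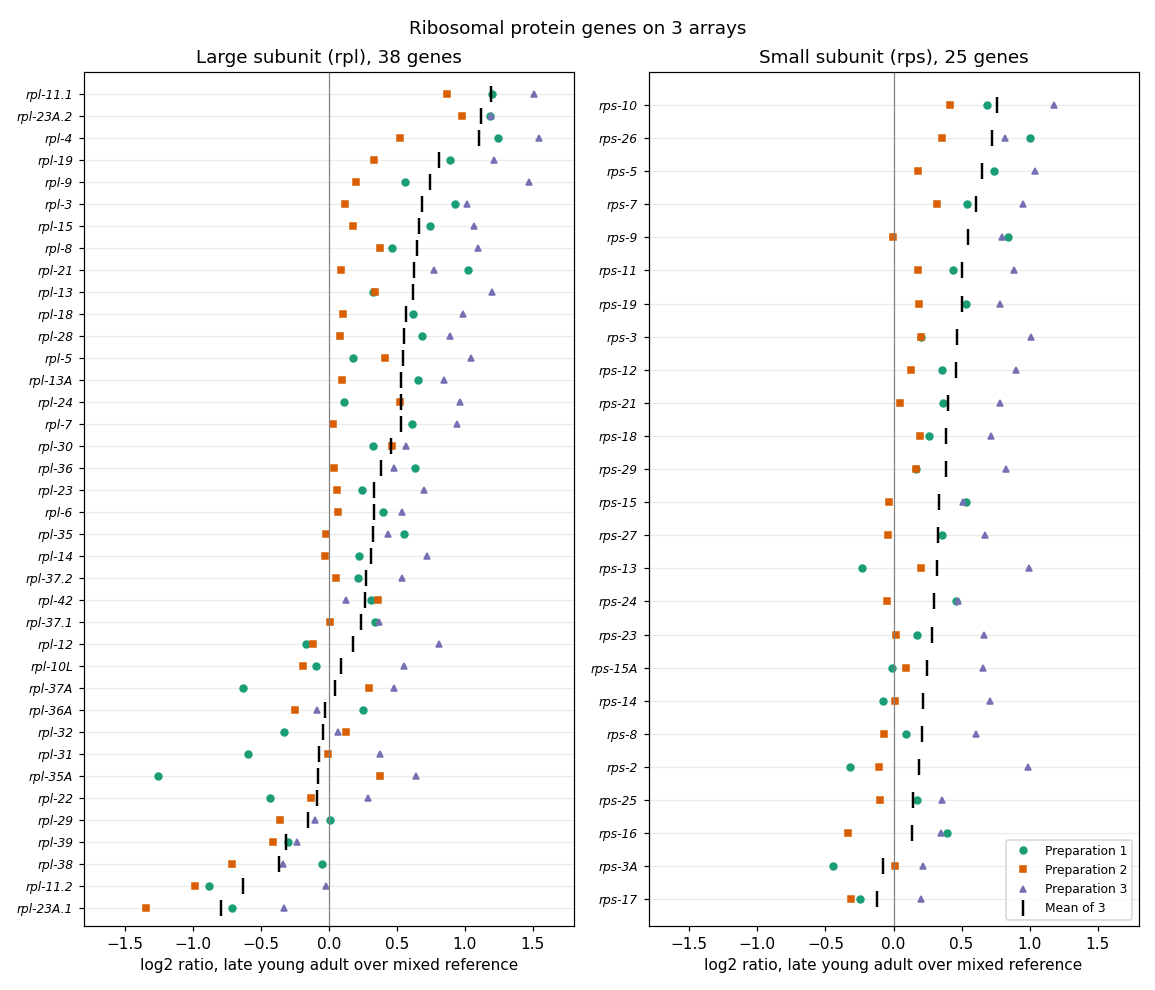
Log2 ratio of adult over reference RNA (x axis) for the 38 large-subunit genes (left) and 25 small-subunit genes (right), ordered by mean; points are the 3 preparations and the black tick is their mean. Array 3 (triangles) lies to the right of array 2 (squares) for 61 of 63 genes, and the copies of rpl-11 and rpl-23A lie at both ends of the large-subunit panel.

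The arrays differed in the whole set together. Array 3 lay above array 2 for 61 of the 63 genes, by a median of 0.65, whereas over all features 51.7% lay higher on array 3 and the median difference was 0.01. Array 3 gave the highest value for 51 genes, array 1 for 10 and array 2 for 2. The list of 34 abundant housekeeping genes moved in the same way, with array medians of 0.89, 0.31 and 1.02 and 33 of 34 genes higher on array 3 than on array 2. The 30 major sperm protein genes, markers of sperm, had array medians of 1.09, 0.59 and 1.8. Array 3 exceeded array 2 for 29 of them, with a median gap of 1.21, a larger shift than that of the ribosomal protein genes. The 3 body wall muscle markers had array medians of 0.29, −0.16 and 0.80, with 2 of 3 higher on array 3 than on array 2. The germline markers shifted by a median of 0.13, with 7 of 8 higher on array 3. All 4 adult cuticle markers were higher on array 3, by a median of 0.99, and all 4 neuron markers, by 0.17. So were 2 of 3 intestine markers (median gap 0.23) and 3 of 5 moulting markers (0.05). The oocyte and yolk markers went the other way, with 3 of 7 higher and a median of −0.11. The part of these tissues and cell types, of stage, or of array preparation in the shift of the ribosomal protein genes was not tested.

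The count of higher genes rests on array 3: without it 3 of the 63 (4.76%) were higher, namely rpl-4 and the autosomal copies of rpl-11 and rpl-23A, where 13.9% of all features were. In the same fit 2 (3.17%) were lower, where 13.9% of all features were. Without array 2, 20 (31.7%) were higher, where 15.8% of all features were, and 0 lower by limma (0 also at an unadjusted p under 0.05), where 15.2% were. Without array 1, 13 (20.6%) were higher, where 22.2% of all features were, and 2 lower, where 21.7% were, with rpl-38 in place of rpl-11.2. The share of higher genes was thus below the background without array 3, above it without array 2 and near it without array 1.

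Among large-subunit genes, rpl-4 followed the autosomal copies, with log2 ratios of 1.25, 0.52 and 1.55, a mean of 1.11 ± 0.53 (SD, n = 3) and a limma adjusted p of 0.00423. Its protein reaches into the wall of the exit tunnel. rpl-19, whose protein helps to bridge the subunits, had 0.89, 0.33 and 1.21 (adjusted p = 0.0126). rpl-3, whose protein reaches toward the peptidyl transferase centre, had 0.92, 0.12 and 1.02 (adjusted p = 0.0309). rpl-8, which encodes another protein close to that centre, had 0.46, 0.38 and 1.09 (adjusted p = 0.0266). All 4 genes lay above 0 on every array, and each had its highest value on array 3 and its lowest on array 2. The calls of rpl-19, rpl-3 and rpl-8 were lost without array 3, and that of rpl-3 also without array 1.

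The other large-subunit genes past the threshold were rpl-9, rpl-15, rpl-21, rpl-13 and rpl-30. Their means ran from 0.45 for rpl-30 to 0.74 for rpl-9, with adjusted p between 0.0301 for rpl-15 and 0.0496 for rpl-30. rpl-9 owed much of its mean to array 3, with 0.56, 0.20 and 1.47. rpl-21 had its highest value on array 1, with 1.02, 0.09 and 0.77. Each of these 5 calls was lost without array 3, and each kept its sign. Those of rpl-9, rpl-15 and rpl-21 were also lost without array 1, and that of rpl-30 without array 2. With the array medians centred, rpl-9, rpl-13 and rpl-30 did not pass (adjusted p between 0.0521 and 0.0629).

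In the small subunit 4 of 25 genes (16%) were higher, a share near or under the 19.6% of all features, and 0 were lower by limma, with 0 lower at an unadjusted p under 0.05 as well. rps-10, whose protein lies near the mRNA entry side of the head, led with 0.68, 0.41 and 1.18, a mean of 0.76 ± 0.39 (SD, n = 3; limma adjusted p = 0.0132). rps-26, whose protein lines the path by which mRNA leaves, had 1.00, 0.36 and 0.82 (adjusted p = 0.0128). rps-5, whose protein also lies near the mRNA exit, had 0.74, 0.18 and 1.04 (adjusted p = 0.0305), and rps-7 had 0.54, 0.32 and 0.95 (adjusted p = 0.0276). None of the 4 remained past the threshold without array 3, and rps-5 did not pass without array 1 either. At the low end stood rps-17 at −0.12 ± 0.28 and rps-3A at −0.07 ± 0.34, neither of which passed.

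Because the set moved as a whole between arrays, each gene was also compared with the set median of its own array. This lowered the median SD of a member over the 3 arrays to 0.21, against 0.38 for the log2 ratios as deposited. That fall is partly built in, because the median subtracted comes from the members themselves. Of 63 mean differences 55 were smaller than 0.5 in size, and the middle 50% of genes ran from −0.21 to 0.18. The SD over genes of the mean log2 ratios was 0.37 for the members, against 0.79 over all features. In the limma fit over all features after this subtraction, 3 of the 63 were higher, where 7.71% of all features were, and 4 were lower, where 28.1% of all features were. The subtraction centres the members on 0 by construction. It lowers the other features, since the set median lay 0.34 above the median of all features on average over arrays. The gap between the members' counts and these shares is therefore partly built in.

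The 3 higher genes were necessarily those with the highest mean log2 ratios. The subtraction shifts every mean equally, and this fit gave all features the same standard error. rpl-11.1 differed from the set median by 0.88, 0.79 and 0.79, a mean of 0.82 ± 0.05 (SD, n = 3; adjusted p = 0.0127). rpl-23A.2 differed by 0.86, 0.90 and 0.48, with a mean of 0.75 ± 0.23 (adjusted p = 0.0251). rpl-4 differed by 0.92, 0.44 and 0.83, with a mean of 0.73 ± 0.25 (adjusted p = 0.0280). The next gene, rpl-19, had 0.44 ± 0.17 and did not pass; its limma 95% interval of −0.11 to 0.99 overlapped that of rpl-4, 0.18 to 1.28. On array 3 rpl-23A.2 had only rank 6 of 63.

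At the low end, rpl-23A.1 differed by −1.03, −1.42 and −1.04, a mean of −1.16 ± 0.22 (adjusted p = 0.000213), and rpl-11.2 by −1.2, −1.06 and −0.74, a mean of −1.0 ± 0.24 (adjusted p = 0.00179). The autosomal genes rpl-38 and rpl-39 also passed. rpl-38, whose protein is known in the mouse for a role in the translation of Hox mRNAs, differed by −0.37, −0.79 and −1.05, a mean of −0.74 ± 0.34 (adjusted p = 0.0269). rpl-39, which encodes a very small protein of the exit tunnel, differed by −0.62, −0.49 and −0.95, a mean of −0.69 ± 0.24 (adjusted p = 0.0414). Against the reference itself neither passed: rpl-38 had −0.05, −0.71 and −0.33, and rpl-39 had −0.30, −0.41 and −0.23, with an adjusted p of 0.148 for both.

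The fit against the set median gave every feature 1 standard error, 0.28, because subtraction adds the same array shifts to all of them; the members' own standard errors had a median of 0.12. With 1 array left out, rpl-23A.1 was below the set median past the threshold in each of the 3 cases and rpl-11.2 in 2 of 3, whereas rpl-39 passed in none. rpl-39 also missed the threshold with robust variances (adjusted p = 0.0678) and against the set mean (adjusted p = 0.0534). rpl-38 passed only without array 1. rpl-11.1 and rpl-23A.2 passed only without array 3, and rpl-4 only without array 2.

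**Figure D3:**
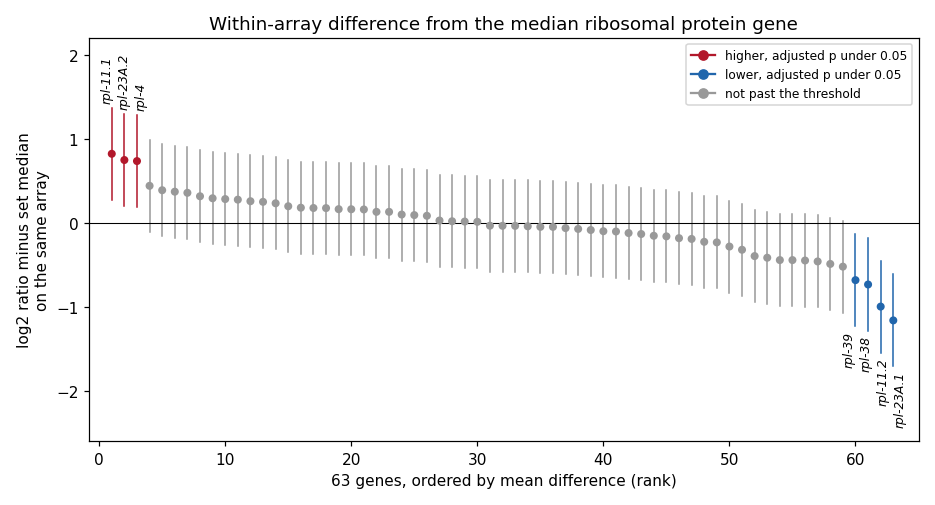
Mean within-array difference from the set median (y axis, log2 scale) for the 63 ribosomal protein genes, ordered by that mean (x axis). Bars are limma 95% confidence intervals from 3 arrays, and colours mark genes past an adjusted p of 0.05. All bars have the same width because the fit gave every feature 1 standard error, 0.28. They do not show each gene's own spread. Most intervals cross 0, while rpl-4 and the autosomal copies of rpl-11 and rpl-23A lie above it and rpl-39, rpl-38, rpl-11.2 and rpl-23A.1 below it.

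Large-subunit and small-subunit genes had nearly the same centre. The median of the large subunit minus that of the small subunit was −0.04, 0.04 and −0.11 on the 3 arrays, a mean of −0.03 ± 0.07 (SD, n = 3), and the exact sign-flip permutation test gave p = 0.75. The large-subunit genes were spread more widely around it. Their mean log2 ratios had an SD over genes of 0.45, or 0.34 without the 4 copies of rpl-11 and rpl-23A, against 0.22 over the small-subunit genes; this spread over genes was not tested.

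The order of the genes was shared only in part between arrays. Over the 63 genes the log2 ratios correlated at r = 0.52 (Spearman's rho 0.44) between arrays 1 and 2, at 0.60 (0.59) between arrays 1 and 3 and at 0.75 (0.71) between arrays 2 and 3. Without the 4 copies of rpl-11 and rpl-23A these were 0.27 (0.33), 0.49 (0.51) and 0.70 (0.65) over 59 genes. The arrays share the reference RNA, and genes are not independent replicates. Array 1 differed for several genes with a low value there: rpl-35A had −1.26, 0.38 and 0.64 and rpl-37A had −0.63, 0.30 and 0.48. The only gene with 2 probes, rpl-31, shows the same within 1 gene, since 1 probe gave −1.19, 0.05 and 0.37 and the other 0.01, −0.07 and 0.38. The probes lie together on arrays 2 and 3 and far apart on array 1.

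Position on the chromosomes was compared by name alone. The 15 members on chromosome I had the highest median of mean log2 ratios, 0.53, and the 10 on chromosome II the lowest autosomal one, 0.07. The others lay at 0.38 for 17 genes on III, 0.29 for 12 on IV and 0.33 for 7 on V. Over all named genes the array medians averaged 0.22 on chromosome I and 0.14 on chromosome II. In 2 places members were next to each other with no other protein-coding gene between. rps-10 minus its neighbour rpl-24 was 0.57, −0.11 and 0.21, and rps-14 minus its neighbour rpl-36 was −0.71, −0.02 and 0.23, so neighbours differed in sign between arrays.

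Ribosomal proteins that carry other symbols were looked up after the files were seen. The P stalk, which recruits the GTPase translation factors, was represented by rplp-0 with log2 ratios of 1.11, 0.56 and 1.31 (limma adjusted p = 0.00376), rplp-2.1 with 0.77, 0.07 and 0.74, and rplp-2.2 with 0.63, 0.00 and 1.00. The copies rplp-2.1 and rplp-2.2, both autosomal, differed by −0.01 ± 0.21 (SD, n = 3), and neither passed. The small-subunit gene rpsa-1 had 1.11, 0.32 and 1.28 (adjusted p = 0.010). From the list fixed with the design, rack-1, a scaffold protein of the small subunit, had 1.49, 0.36 and 1.54 (adjusted p = 0.00713), and ubq-2, a ubiquitin fused to a ribosomal protein, had 0.52, 0.34 and 0.61 (adjusted p = 0.0375). All 6 lay highest on array 3 or array 1 and lowest on array 2, and 45 of the 63 genes were lowest on array 2 too.

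Genes that work with the ribosome were counted from lists, against the same background of 19.6% higher and 18.8% lower. The place of pes-1 in the assembly list and of etr-1 in the translation factor list is doubtful. Neither of these genes passed the threshold. Of 32 measured initiation, elongation and release factors and their partners, 19 were higher (59.4%) and 2 lower (6.25%), with array medians of 0.63, 0.50 and 0.84. The helicase gene inf-1 and the scaffold gene ifg-1, both of the cap-binding complex, had means of 1.89 ± 0.28 and 1.61 ± 0.49, and the 2 lower genes were iff-2 at −1.05 ± 0.41 and the X-linked pab-2 at −0.90 ± 0.63. Of 35 genes of ribosome assembly and RNA polymerase I, 22 were higher (62.9%) and 5 lower (14.3%), with array medians of 0.68, 1.09 and 0.72. The nucleolar genes nucl-1 and fib-1 led at 2.17 ± 0.15 and 2.02 ± 0.39 (SD, n = 3 each). The 5 lower genes were nog-1 at −1.45 ± 0.15, byn-1 at −0.88 ± 0.14, ngp-1 at −0.83 ± 0.06, lpd-7 at −0.65 ± 0.20 and imp-3 at −0.61 ± 0.31. Each of them lay below 0 on every array.

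The set median of the ribosomal proteins minus the median of each list on the same array, averaged over arrays, was −0.28 ± 0.15 for the translation factors, −0.46 ± 0.51 for the assembly genes and −0.37 ± 0.18 for the abundant housekeeping genes. Against 45 mitochondrial ribosomal protein genes, of which 16 were higher and 2 lower, it was −0.005 ± 0.26. On array 3 alone the assembly genes and the ribosomal proteins had nearly the same median, 0.72 for each. These differences between lists were not tested. The list median of the assembly genes was highest on array 2, yet gene by gene array 3 exceeded array 2 for 24 of 35, with a median gap of 0.10.

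**Figure D4:**
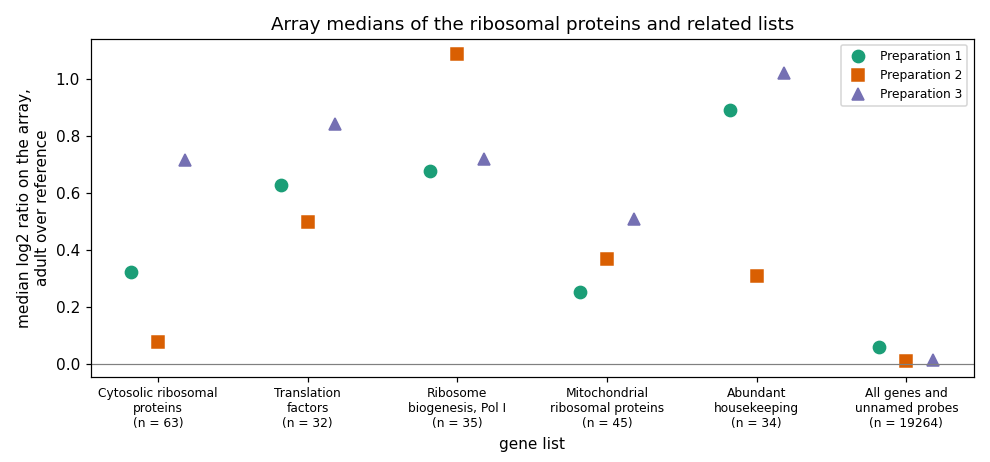
Median log2 ratio on each array (y axis) for the cytosolic ribosomal proteins and 5 other groups of genes (x axis, number of genes below each); symbols give the preparation. The ribosomal proteins and the housekeeping genes are highest on array 3 and lowest on array 2, the list median of the assembly genes is highest on array 2 although 24 of 35 of these genes are higher on array 3, and all features together lie near 0.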

How the data were processed

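The authors deposited 1 table of log2 ratios, with 20000 probes in rows and 3 arrays in columns. The unit comes from the values: 2 raised to a value was a whole multiple of 0.001 for 99.98% of them (within 0.01 of that step). Background correction, normalization and filters are not given in the sources used here, and no spot intensities were used, so the 3 arrays set the precision. Gene names came from the platform annotation, checked by gene identifier against RefSeq (WBcel235), which was used for names, chromosomes and neighbours. Probes of 1 symbol were averaged on each array; 1 probe with several symbols, of which 1 fits the rule, was left out.

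All 19264 features were fitted with limma 3.58.1 in R 4.3.3 (intercept, eBayes, two-sided, Benjamini-Hochberg, threshold 0.05), as deposited and after subtracting on each array the set median or the second copy's value. The fit of log2 ratios as deposited was also run on simulated data with independent noise for each feature. Those data lacked the shifts that whole sets share between these arrays. The fits after subtraction were not simulated. Members and lists were chosen with earlier results of these data known. Named were all members past the threshold in either fit, all copies, the 10 highest and 10 lowest within arrays, and the gene with 2 probes; others were named after their values were seen. Alternatives were array centring, equal array spread, 1 probe per gene, robust and unmoderated variances, a filter on missing values, the set mean as centre, and leaving out each array.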

Additional observations from a re-analysis of the deposited data

How the results depend on the processing

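No paired analysis was possible because the series holds 1 group. The differences within the rpl-11 and rpl-23A pairs kept sign and call under array centring, equal spread, 1 probe per gene and robust variances, and ran from 1.69 to 1.97 and from −2.11 to −1.71 with 1 array left out; without moderation rpl-11 kept its difference of 1.82 but not its call. The rpl-37 difference was 0.036 without array 3 and ran from −0.11 to 0.036. Higher members against the reference numbered 3 to 20 and lower ones 0 to 2 with 1 array left out. Of all features 13.9% to 22.2% were higher and 13.9% to 21.7% lower in those fits. Without moderation 0 of all 19264 features were called in either fit, and so 0 members. Against the reference the members' smallest adjusted p was 0.0804, and 4 members and 6188 features had an unadjusted p under 0.05. Against the set median it was 0.239, with 12 members and 3945 features at that unadjusted level. Equal spread, and a value on at least 2 arrays, each left 1 lower member, without rpl-11.2. Those fits called 3593 of 19264 and 3591 of 19428 features lower. Higher members numbered 12 with array medians centred (rpl-9, rpl-13 and rpl-30 lost), where 3578 of 19264 features were higher. Under equal spread they numbered 14 (rpl-30 lost), where 3743 of 19264 features were. Under 1 probe per gene they also numbered 14 (rpl-30 lost), where 3765 of 19229 features were. With a value on at least 2 arrays they numbered 13 (rpl-13 and rpl-30 lost), where 3714 of 19428 features were. Against the set median, rpl-39 was lost with robust variances and with the set mean as centre. Against the set median, 0 to 2 were higher and 2 lower with 1 array left out. The same fits called 694 to 1336 of 19264 features higher and 2907 to 5171 lower, against 1485 and 5418 with all 3 arrays. The cause of these losses was not tested, though fits without 1 array rest on fewer samples. With 1 array left out, sign changes among named members were those of rpl-35A (−0.44 to 0.51, past the threshold at 0.51 without array 1; −0.83 to 0.11 against the set median), rpl-22 (−0.28 to 0.079), rpl-31 (−0.30 to 0.18), rps-3A (−0.22 to 0.11), rpl-37A (−0.17 to 0.39, and −0.074 without array 2), rps-14 (−0.032 to 0.36) and, against the set median, rpl-30 (−0.073 to 0.20) and rpl-36 (−0.14 to 0.13). rpl-24 passed only without array 1 (0.74). The set median ran from 0.20 to 0.52 and large minus small subunit from −0.07 to 0.001 with 1 array left out.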
